A study of Mus musculus with 30 samples.

Results

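The Hox cluster genes encode homeodomain transcription factors and lie side by side in the clusters Hoxa, Hoxb, Hoxc and Hoxd. All genes of the deposited expression table with a symbol made of Hoxa, Hoxb, Hoxc or Hoxd and a paralogue number were taken. These were 22 of the 14685 genes in the table, of which 21 are described: 5 of Hoxa (Hoxa5, Hoxa6, Hoxa7, Hoxa9 and Hoxa13), 9 of Hoxb (Hoxb1 to Hoxb9), 1 of Hoxc (Hoxc13) and 6 of Hoxd (Hoxd1, Hoxd3, Hoxd4, Hoxd8, Hoxd9 and Hoxd10). The mouse has 39 Hox genes, and counts below are over these 21.

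RNA was sequenced from 5 populations of a blood differentiation culture of E14 mouse ESC, each in 3 genotypes with 2 biological replicates, 30 libraries in all. The populations were undifferentiated ESC, Flk1 cells (purified from embryoid bodies by the surface receptor Flk1), and 3 populations sorted from day 2 of blast culture. These were HE1 (KIT+ CD41- Tie2+) and HE2 (KIT+ CD41+ Tie2+), both haemogenic endothelium, and progenitor (KIT+ CD41+ Tie2-). The genotypes were WT, Sp1ΔDBD (labelled Sp1_deltaDBD, with a truncated Sp1 that has lost its DNA-binding domain) and Sp3KO (a knockout of Sp3). Each mutant was a single ESC line, all lines were kept on mouse embryonic fibroblast feeders before differentiation, and the length of embryoid body culture was adjusted to the line. Line, culture length and genotype therefore cannot be told apart.

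During development, Hox genes are switched on in the order of their place in the cluster, the low paralogue numbers (anterior genes) earlier and the high numbers (posterior genes) later, a property called colinearity. Retinoic acid, Wnt and Cdx factors set them in motion, trithorax and Polycomb complexes hold them on or off, and the TALE homeodomain proteins of the Pbx and Meis families bind DNA together with them. In blood, Hoxb4 and the Hoxa genes of middle and posterior number are known for their part in the growth of stem and progenitor cells. Sp1 and Sp3 are closely related zinc finger factors present in nearly every cell, and both bind the GC box.

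Values are FPKM, a measure of RNA level scaled to transcript length and library size, quantile normalised by the authors. No read counts go with them, so depth is unknown. In each library the lowest value was shared by 398 to 1660 genes. It was 0 in 14 libraries and at most 0.0234 FPKM in the others, and a gene there is described as at the lowest value. Differences are on the log2(FPKM + 0.1) scale, which understates the change of genes near 0, and come with a standard error (SE) from limma, fitted over all 30 libraries and 14525 genes. A gene was called when its two-sided p, adjusted after Benjamini and Hochberg over all genes tested in that comparison, was under 0.05. The smallest p that exact permutation of 2 against 2 libraries can reach is 0.333, so these calls rest on the spread shared across groups.

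All 21 Hox genes were tested, and 12 of them had a mean above 3 FPKM in at least 1 group. The highest value of any Hox gene in any library was 21.4 FPKM, while the median gene of every library was at 7.19 FPKM. Hoxa5, Hoxa6, Hoxa7 and Hoxa9 entered the test through 1 library alone, WT progenitor replicate 1, and Hoxc13 through Sp1ΔDBD ESC replicate 1 alone. Hoxd10 and Hoxb8 passed 1 FPKM in mutant libraries only, in 6 and 4 of them, so that the filter kept them through the groups in which they were high. Sp3 itself was at 25.9 to 58.1 FPKM in the WT libraries and at 3.38 to 7.79 FPKM in the Sp3KO libraries. Sp1 was at 14.8 to 40.5 FPKM in the Sp1ΔDBD libraries and at 24.9 to 52.4 FPKM in WT. These ranges overlapped, but they pool all populations and so do not compare the genotypes within a population. Over the 10 comparisons of either mutant with WT, Sp1 was called 3 times, each time lower (smallest limma adjusted p = 0.00788). Many but not all markers were highest in the population of their label. The 6 ESC markers had their highest mean in ESC, and Mesp1, Etv2 and Hand1 had theirs in Flk1 cells. Tek and Cdh5 were highest in HE1, Erg and Itga2b in HE2, and Gata1, Spi1 and Myb in progenitors. Tal1, listed for Flk1 cells, and Kit, listed for haemogenic endothelium, were highest in progenitors. Gata2, listed for HE2 and progenitors, was highest in HE1. Kdr, which encodes Flk1, had a mean of 197 FPKM in Flk1 cells and of 260 in HE1.

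The sequence just upstream of the Hoxd genes is shown because 10 of the 11 calls between Sp3KO and WT described further on were Hoxd genes, and because Sp1 and Sp3 are known to bind the GC box. Capitals mark a GC box, searched as GGGCGG and, for the other strand, CCGCCC. The sequences are those of RefSeq (GRCm38.p6), on the forward strand, 250 bases before the RefSeq start of each gene or the stretch of them that no exon of a coding gene covers. They are given in the order of the chromosome, from the posterior to the anterior end of the cluster, at chr2:74691641-74691890, chr2:74697513-74697726, chr2:74704365-74704614, chr2:74711743-74711926, chr2:74721728-74721977 and chr2:74762730-74762979. The Hoxd4 window lies inside the longer span, chr2:74711929-74729160, that the annotation used for positions further on gives to Hoxd4.
Hoxd10: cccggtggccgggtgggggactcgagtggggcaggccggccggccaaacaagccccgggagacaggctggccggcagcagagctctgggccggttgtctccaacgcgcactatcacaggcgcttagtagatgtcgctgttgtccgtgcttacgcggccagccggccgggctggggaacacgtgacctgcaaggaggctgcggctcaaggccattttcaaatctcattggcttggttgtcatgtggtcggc
Hoxd9: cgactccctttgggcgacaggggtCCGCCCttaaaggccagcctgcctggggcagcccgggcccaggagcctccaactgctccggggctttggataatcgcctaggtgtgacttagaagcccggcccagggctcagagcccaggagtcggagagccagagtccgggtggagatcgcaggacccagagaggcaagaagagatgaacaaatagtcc
Hoxd8: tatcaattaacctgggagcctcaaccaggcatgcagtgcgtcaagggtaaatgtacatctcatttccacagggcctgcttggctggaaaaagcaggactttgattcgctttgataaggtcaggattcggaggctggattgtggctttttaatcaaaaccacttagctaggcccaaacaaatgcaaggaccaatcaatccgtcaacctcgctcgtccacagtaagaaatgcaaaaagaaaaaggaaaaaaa
Hoxd3: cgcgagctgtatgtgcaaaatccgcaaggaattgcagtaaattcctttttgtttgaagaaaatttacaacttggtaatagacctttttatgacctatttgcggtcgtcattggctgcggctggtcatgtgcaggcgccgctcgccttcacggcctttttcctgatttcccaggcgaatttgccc
Hoxd4: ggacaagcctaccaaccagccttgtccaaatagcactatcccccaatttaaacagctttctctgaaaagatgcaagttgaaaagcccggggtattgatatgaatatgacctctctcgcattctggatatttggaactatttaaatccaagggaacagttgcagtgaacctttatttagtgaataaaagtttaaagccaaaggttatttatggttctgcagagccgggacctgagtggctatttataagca
Hoxd1: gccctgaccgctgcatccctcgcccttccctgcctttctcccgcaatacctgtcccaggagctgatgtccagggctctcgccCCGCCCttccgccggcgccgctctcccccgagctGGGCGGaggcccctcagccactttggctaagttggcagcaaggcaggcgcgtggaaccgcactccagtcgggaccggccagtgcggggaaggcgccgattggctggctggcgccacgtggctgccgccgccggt
Hoxd1 held 2 GC boxes and Hoxd9 held 1, while these letters were not in the windows of Hoxd10, Hoxd8, Hoxd3 and Hoxd4. Of the 21 Hox genes, 14 had a start in the RefSeq table, and 6 of these 14 had a GC box in the 250 bases before it. Among all 32851 starts in that table the share was 32.7%.

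In WT cells the Hox genes were close to silent in ESC, and the Hoxb genes came on in the order of their paralogue number. The 9 Hoxb genes summed to 0.218 and 0.213 FPKM in the 2 ESC libraries, to 12.8 and 12.02 in Flk1 cells, to 32.5 and 29.4 in HE1, to 15.2 and 15.01 in HE2, and to 1.89 and 0.504 in progenitors. The cluster as a whole was thus highest in HE1 and nearly off again in progenitors. The 6 Hoxd genes followed another course, with sums of 0.0309 and 0.0274 FPKM in ESC, 4.11 and 5.98 in Flk1 cells, 5.003 and 10.97 in HE1, 9.09 and 18.5 in HE2 and, in progenitors, 3.64 and 9.71. Their replicates lay far apart in HE1, HE2 and progenitors, and the highest sums were in HE2. Of the 21 genes, 11 had their highest WT mean in HE1, 4 in progenitors (the 4 Hoxa genes that rest on 1 library), 3 in HE2 (Hoxd3, Hoxd4 and Hoxd8), 2 in Flk1 cells (Hoxb1 and Hoxd1) and 1 in ESC (Hoxc13).

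**Figure D1:**
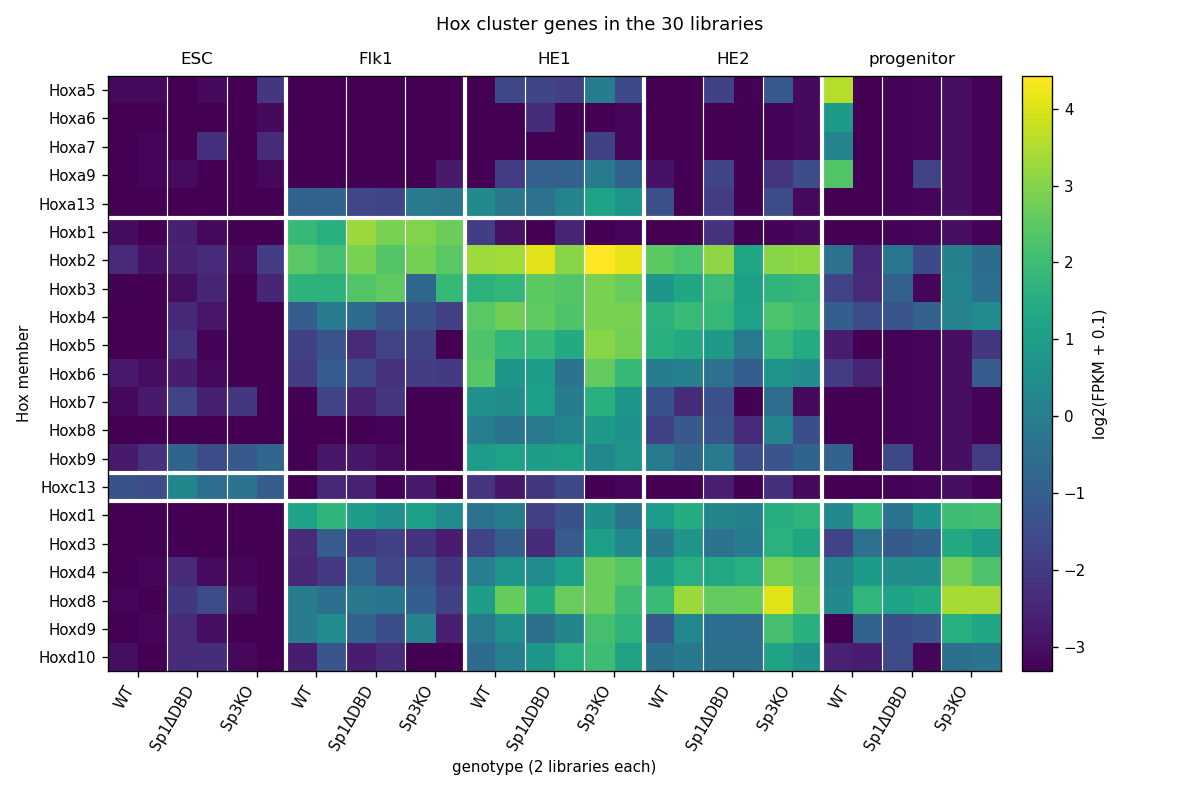
Expression of the 21 Hox genes, as log2(FPKM + 0.1), in the 30 libraries, ordered by population and genotype with the 2 replicates side by side. The Hoxb genes light up in Flk1 cells and HE1 of all 3 genotypes, the Hoxd genes are brightest in the Sp3KO libraries of HE1, HE2 and progenitors, and Hoxa5 to Hoxa9 stand out in 1 library, WT progenitor replicate 1.

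From ESC to Flk1 cells, 14 Hox genes were called in WT, 13 higher and 1 lower, where 52.2% of all genes tested were called. On the log2 scale Hoxb1 rose by 4.93 (SE 0.384), Hoxb2 by 4.98 (SE 0.607) and Hoxb3 by 4.97 (SE 0.649), with limma adjusted p of 3.18e-09, 1.22e-06 and 2.90e-06. Further along the cluster the rise was smaller, with 2.69 for Hoxb4, 1.76 for Hoxb5 and 1.42 for Hoxb6. Hoxb7, Hoxb8 and Hoxb9 were not called. All 6 Hoxd genes rose, by 4.75 for Hoxd1, 3.45 for Hoxd9, 3.01 for Hoxd8, 1.58 for Hoxd3, 1.19 for Hoxd10 and 1.02 for Hoxd4. Hoxa13 rose by 2.43. Hoxc13, which lies at the posterior end of its cluster, fell by 1.44. In ESC both libraries of Hoxa13 and Hoxb5 were at the lowest value, so no fold is given for them. With a pseudocount of 1 in place of 0.1, the calls of Hoxb5, Hoxb6, Hoxd3, Hoxd4, Hoxd8 and Hoxd10 at this step were lost.

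From Flk1 cells to HE1 the higher numbers of the Hoxb cluster followed. Of the Hox genes, 11 were called, 9 higher and 2 lower, where 53% of all genes tested were called. On the log2 scale Hoxb9 rose by 4.13, Hoxb5 by 3.61, Hoxb4 by 3.22, Hoxb8 by 3.15, Hoxb7 by 3.08 and Hoxb6 by 3.08. Hoxb1, the most anterior gene, fell by 4.16. Hoxb2 and Hoxb3 were not called, at 5.36 and 4.35 FPKM in Flk1 cells and 9.73 and 10.2 FPKM in HE1 for Hoxb2. Hoxd4 rose by 2.57, Hoxd8 by 2.06 and Hoxd10 by 1.69, while Hoxd1 fell by 1.70. Hoxd1 and Hoxb1, both of paralogue group 1, were thus the genes that went down as HE1 formed.

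Across the 9 Hoxb genes, Spearman's rho between paralogue number and the log2 change was -0.95 from ESC to Flk1 cells and 0.733 from Flk1 cells to HE1 in WT. It was -0.95 and 0.733 in Sp1ΔDBD, and -0.967 and 0.5 in Sp3KO cells. The 9 genes are neighbours measured in the same libraries, so these values describe the order and carry no p. Across the 6 Hoxd genes it was -0.314 and 0.314 in WT for the same steps, -0.429 and 0.829 in Sp1ΔDBD, and -0.429 and 0.771 in Sp3KO cells.

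**Figure D2:**
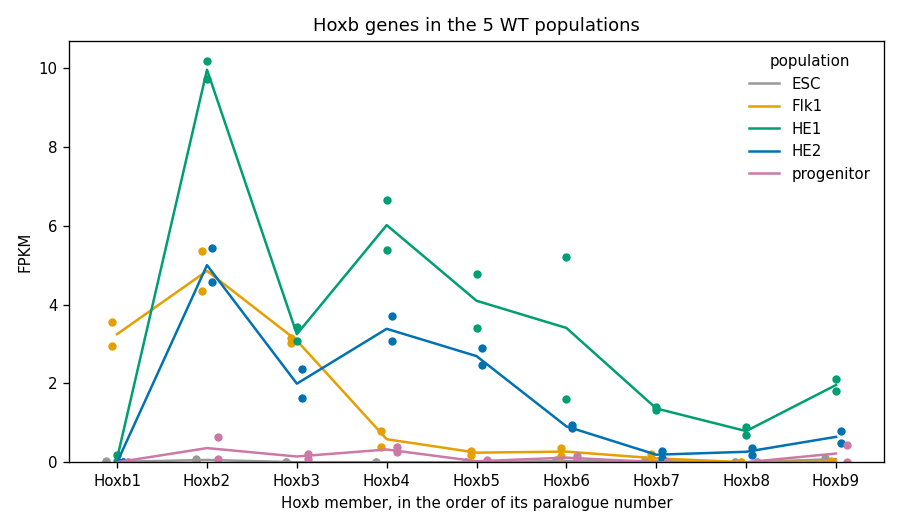
FPKM of the 9 Hoxb genes in the 5 WT populations. Points are the 2 libraries and lines join their means. Hoxb1 is highest in Flk1 cells, at 3.55 and 2.95 FPKM, and the other 8 are highest in HE1, with Hoxb2 on top at 9.73 and 10.2 FPKM.

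At the step from HE1 to HE2, 5 Hox genes were called, where 21.9% of all genes tested were called. Hoxd1 rose by 1.45 and Hoxd3 by 1.62 on the log2 scale, while the change was -2.45 for Hoxa13, -2.40 for Hoxb7 and -1.31 for Hoxb8. From HE2 to progenitors 7 were called, all lower, where 13.2% of all genes tested were called and 7.78% were called lower. The log2 changes were -4.50 for Hoxb5, -3.79 for Hoxb2, -3.11 for Hoxb3, -3.05 for Hoxb4, -2.31 for Hoxd10, -2.25 for Hoxb6 and -1.82 for Hoxb8. For Hoxb8 both progenitor libraries were at the lowest value, so its change gives no fold. None of Hoxd1, Hoxd3, Hoxd4, Hoxd8 and Hoxd9 was called at this last step, and their WT progenitor values ranged from the lowest value to 3.43 FPKM.

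The same steps were tested in the mutants. In Sp1ΔDBD cells 11, 13, 7 and 7 Hox genes were called at the successive steps, where 48.6%, 46.1%, 20% and 15.8% of all genes tested were called. In Sp3KO cells 11, 14, 4 and 5 were called, where 48.8%, 44%, 14.4% and 8.77% of all genes were. The population with the highest mean was the same in all 3 genotypes for 15 of the 21 genes. The 6 others were Hoxb3, Hoxd1 and the 4 Hoxa genes that rest on 1 library, and Hoxd1 was highest in Flk1 cells in WT and Sp1ΔDBD and in progenitors in Sp3KO. Hoxd3, Hoxd4 and Hoxd8 were highest in HE2 in every genotype.

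The Hoxd cluster was higher in Sp3KO than in WT cells, in HE1, HE2 and progenitors. Summed over the 6 genes, Sp3KO HE1 libraries were at 24.0 and 16.2 FPKM, against 5.003 and 10.97 in WT. In HE2 the sums were 35.6 and 22.1 FPKM against 9.09 and 18.5. In progenitors they were 27.3 and 24.0 FPKM, a mean of 25.7 ± 2.31 (SD, n = 2), against 3.64 and 9.71, a mean of 6.67 ± 4.30 (SD, n = 2), in WT. The WT replicates lay further apart than those of Sp3KO progenitors, but the sums of the genotypes did not overlap in any of these populations. In Flk1 cells the Sp3KO sums were 3.77 and 1.67 FPKM against 4.11 and 5.98, and in ESC the highest Hoxd sum of WT and Sp3KO was 0.0501 FPKM.

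In Sp3KO cells compared with WT, 11 calls were made over the 5 populations, all higher, and 10 of them were Hoxd genes. In HE1, 3 Hox genes were called, Hoxd3, Hoxd4 and Hoxd10, where 10.9% of all genes tested were called and 6.02% were called higher. In HE2, 2 were called, Hoxd4 and Hoxd9, where 13.8% of all genes were called and 6.97% higher. In progenitors, 6 were called, Hoxb4, Hoxd3, Hoxd4, Hoxd8, Hoxd9 and Hoxd10, where 8.65% of all genes were called and 3.88% higher. In ESC and Flk1 cells limma called 0 of the 21, where 11.3% and 12.6% of all genes were called. There 1 and 3 Hox genes had an unadjusted p under 0.05, beside 3649 and 3918 of the 14525 genes tested. For HE1 and HE2 the counts over all 21 Hox genes, 3 and 2, were near the share among all genes.

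The 6 Hoxd genes were all higher in Sp3KO than in WT in HE1, HE2 and progenitors. The median log2 difference of the 6 was 1.80 in HE1, 1.20 in HE2 and 2.24 in progenitors, where the median of all genes tested was 0.05, 0.03 and 0.04. Both Sp3KO libraries were above both WT libraries for 4 of the 6 genes in HE1, 5 of 6 in HE2 and 6 of 6 in progenitors. Among all genes tested that held for 35.4%, 31.8% and 32.9%. For the Hoxa genes it held for 5 of 5, 4 of 5 and 1 of 5, and for the Hoxb genes for 6 of 9, 5 of 9 and 5 of 9, so that in HE1 this measure did not set the Hoxd genes apart. In 1 of the Hoxa genes in HE1, 2 in HE2 and 1 in progenitors, and in 1 Hoxb gene in HE2 and 3 in progenitors, all 4 libraries were at the lowest value, which differs a little from library to library, while no Hoxd gene was in that position. The genes of the cluster share libraries and chromatin, and are not independent of each other.

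**Figure D3:**
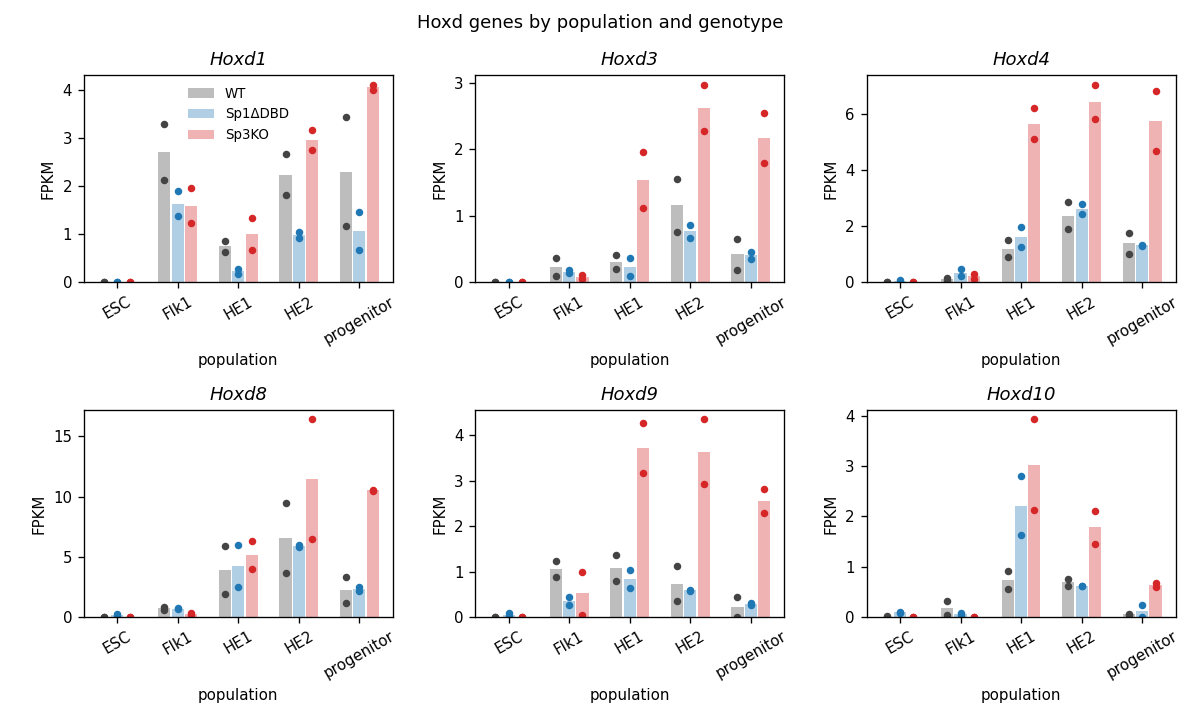
FPKM of the 6 Hoxd genes in each population and genotype. Bars are means and points the 2 libraries. In progenitors both Sp3KO points lie above both WT points for all 6 genes, and in Flk1 cells for none.

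Hoxd4 had the most stable of these calls, the one in HE1. It was at 0.000312 and 0.0107 FPKM in WT ESC, 0.0837 and 0.148 in WT Flk1 cells, 0.897 and 1.51 in WT HE1, 1.88 and 2.87 in WT HE2, and 1.02 and 1.77 in WT progenitors. In Sp3KO cells it was at 0.0101 FPKM and the lowest value in ESC, 0.309 and 0.14 in Flk1 cells, 6.2 and 5.09 in HE1, 7.02 and 5.79 in HE2 and, in progenitors, 6.79 and 4.68. In Sp1ΔDBD cells it was at 0.0923 and 0.0169 FPKM in ESC, 0.477 and 0.215 in Flk1 cells, 1.25 and 1.95 in HE1, 2.44 and 2.79 in HE2 and, in progenitors, 1.31 and 1.34. Every Sp3KO library of HE1, HE2 and progenitors was thus above every WT and Sp1ΔDBD library of Hoxd4. The log2 difference between Sp3KO and WT was 2.17 (SE 0.385, limma adjusted p = 0.00170) in HE1, 1.42 (SE 0.385, limma adjusted p = 0.0201) in HE2 and 1.99 (SE 0.385, limma adjusted p = 0.00387) in progenitors. In HE1 the call held whichever of the 30 libraries was left out. In HE2 it was lost without WT HE2 replicate 1 or either Sp3KO HE2 replicate. In progenitors it was lost without Sp3KO progenitor replicate 1. Hoxd4 and Hoxd3 overlap in the annotation, at chr2:74711929-74729160 and chr2:74711927-74748442 (GRCm38, both on the forward strand), so reads of their shared part could have been counted for either.

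Hoxd3, of the anterior class, was called in HE1 and progenitors. In WT it was at the lowest value and 0.00276 FPKM in ESC, 0.0956 and 0.37 in Flk1 cells, 0.195 and 0.408 in HE1, 0.761 and 1.56 in HE2 and, in progenitors, 0.193 and 0.657. In Sp3KO cells both ESC libraries were at the lowest value, Flk1 cells were at 0.118 and 0.0512 FPKM, HE1 at 1.96 and 1.12, HE2 at 2.97 and 2.27, and progenitors at 2.54 and 1.8. The Sp1ΔDBD libraries stood at 0.00342 and 0.00174 FPKM in ESC, 0.137 and 0.191 in Flk1 cells, 0.0915 and 0.369 in HE1, 0.673 and 0.86 in HE2 and, in progenitors, 0.355 and 0.461. The Sp3KO values were above both other genotypes in HE1, HE2 and progenitors. Hoxd3 rose by 2.03 on the log2 scale in HE1 (SE 0.508, limma adjusted p = 0.0149) and by 2.25 in progenitors (SE 0.508, limma adjusted p = 0.00976), and in HE2 the difference of 1.18 did not pass (SE 0.508, limma adjusted p = 0.128).

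Hoxd8, at chr2:74704615-74707933, had the highest FPKM of the Hoxd genes. In WT it was at 0.00789 FPKM and the lowest value in ESC, 0.882 and 0.608 in Flk1 cells, 1.92 and 5.91 in HE1, 3.66 and 9.51 in HE2 and, in progenitors, 1.2 and 3.35. The Sp3KO libraries stood at 0.0284 FPKM and the lowest value in ESC, 0.396 and 0.19 in Flk1 cells, 6.29 and 3.98 in HE1, 16.4 and 6.51 in HE2 and, in progenitors, 10.6 and 10.5. Its Sp1ΔDBD values were 0.14 and 0.246 FPKM in ESC, 0.736 and 0.708 in Flk1 cells, 2.54 and 6.03 in HE1, 5.86 and 5.97 in HE2 and, in progenitors, 2.16 and 2.55. In HE1 and HE2 the genotypes overlapped, and only in progenitors did both Sp3KO libraries stand above those of WT. There Hoxd8 rose by 2.33 on the log2 scale (SE 0.569, limma adjusted p = 0.0155).

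Hoxd9 and Hoxd10 are the posterior members. Hoxd9 in WT was at the lowest value and 0.00983 FPKM in ESC, 0.879 and 1.24 in Flk1 cells, 0.791 and 1.37 in HE1, 0.35 and 1.12 in HE2, and the lowest value and 0.45 in progenitors. In Sp3KO cells it was at the lowest value in both ESC libraries, at 0.988 and 0.0597 FPKM in Flk1 cells, 4.27 and 3.17 in HE1, 4.34 and 2.93 in HE2 and, in progenitors, 2.81 and 2.28. In Sp1ΔDBD cells it was at 0.093 and 0.0248 FPKM in ESC, 0.438 and 0.266 in Flk1 cells, 0.632 and 1.05 in HE1, 0.608 and 0.581 in HE2 and, in progenitors, 0.264 and 0.313. In progenitors no WT or Sp1ΔDBD library exceeded 0.45 FPKM, while the lower of the Sp3KO libraries was at 2.28 FPKM. Hoxd9 rose by 2.31 on the log2 scale in HE2 (SE 0.721, limma adjusted p = 0.0390) and by 3.49 in progenitors (SE 0.721, limma adjusted p = 0.00598), and in HE1 the difference of 1.72 did not pass (limma adjusted p = 0.133).

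Hoxd10 in WT was at 0.0226 FPKM and the lowest value in ESC, 0.0532 and 0.318 in Flk1 cells, 0.56 and 0.909 in HE1, 0.629 and 0.755 in HE2 and, in progenitors, 0.064 and 0.0549. The Sp3KO libraries stood at 0.0116 FPKM and the lowest value in ESC, at the lowest value in both Flk1 libraries, at 3.92 and 2.13 in HE1, 2.11 and 1.46 in HE2 and, in progenitors, 0.606 and 0.685. The Sp1ΔDBD libraries stood at 0.0904 and 0.101 FPKM in ESC, 0.0544 and 0.093 in Flk1 cells, 1.63 and 2.8 in HE1, 0.62 and 0.62 in HE2 and, in progenitors, 0.238 and the lowest value. In HE1 both mutants were above WT, and in HE2 and progenitors Sp3KO alone had both libraries above. Against WT, Hoxd10 rose in Sp3KO cells by 1.87 on the log2 scale in HE1 (SE 0.478, limma adjusted p = 0.0169) and by 2.22 in progenitors (SE 0.478, limma adjusted p = 0.00720). Hoxd10 passed 1 FPKM in mutant libraries only, so these calls rest on a filter met through groups in which it was high. The calls were also made with no filter. The deposited genes had already been kept by the authors for passing 1 FPKM somewhere, so that fit cannot undo the selection. In Sp1ΔDBD HE1 the difference of 1.46 did not pass (SE 0.478, limma adjusted p = 0.0607).

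Hoxd1, at the anterior end, was the Hoxd gene without a call in Sp3KO cells. In WT it was at the lowest value and 0.00417 FPKM in ESC, 2.12 and 3.29 in Flk1 cells, 0.639 and 0.861 in HE1, 1.81 and 2.66 in HE2 and, in progenitors, 1.17 and 3.43. In Sp3KO cells both ESC libraries were at the lowest value, Flk1 cells were at 1.96 and 1.23 FPKM, HE1 at 1.34 and 0.682, HE2 at 2.75 and 3.16, and progenitors at 3.99 and 4.1. In Sp1ΔDBD cells both ESC libraries were at the lowest value, Flk1 cells were at 1.89 and 1.37 FPKM, HE1 at 0.178 and 0.28, HE2 at 1.05 and 0.932, and progenitors at 0.673 and 1.46. The Sp1ΔDBD values were thus the lowest of the 3 genotypes in HE1 and HE2. The difference between Sp3KO and WT was 0.97 in progenitors (SE 0.430, limma adjusted p = 0.177).

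Several of these calls depended on a single library. When WT progenitor replicate 1, the library with the Hoxa genes described further on, was left out, 3 of the 6 progenitor calls held: Hoxb4 at 1.78 (limma adjusted p = 0.0172), Hoxd10 at 2.26 (limma adjusted p = 0.0358) and Hoxd4 at 1.62 (limma adjusted p = 0.0474). Hoxd3 then had a difference of 1.56 (limma adjusted p = 0.126), Hoxd8 of 1.62 (limma adjusted p = 0.169) and Hoxd9 of 2.26 (limma adjusted p = 0.0916). Without WT HE1 replicate 1, 1 of the 3 HE1 calls held, that of Hoxd4. When the libraries of each population were fitted alone, none of the 11 calls passed, with limma adjusted p between 0.0771 and 0.155. The Hoxd9 call in HE2 was also lost once GC content and length were corrected for (limma adjusted p = 0.0867). The HE2 calls of Hoxd4 and Hoxd9 were both lost without WT HE2 replicate 1 or either Sp3KO HE2 replicate.

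**Figure D4:**
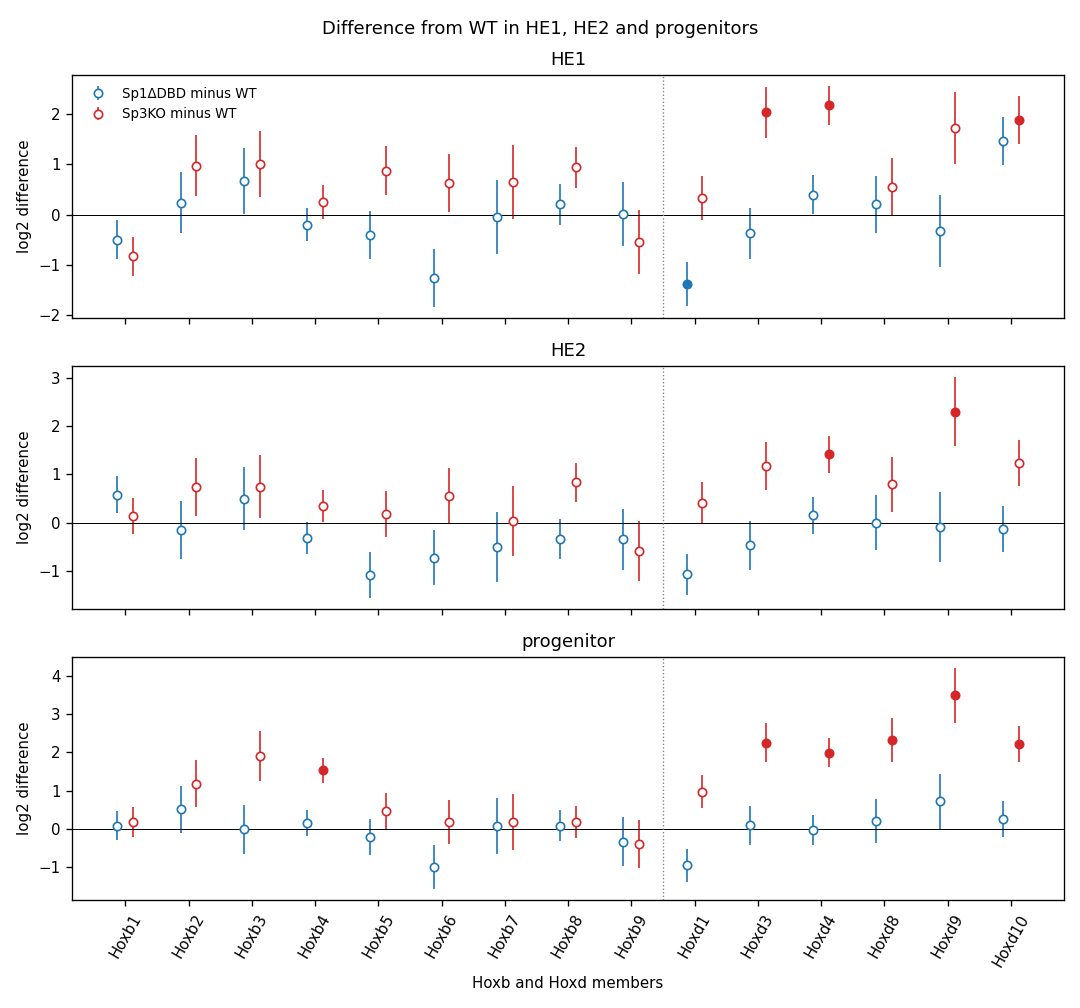
Log2 difference from WT, with its SE, of the Hoxb and Hoxd genes in HE1, HE2 and progenitors, for Sp1ΔDBD and Sp3KO. Filled points were called. The Sp3KO points of the Hoxd genes lie to the side of higher expression in all 3 populations, with medians of 1.80, 1.20 and 2.24. Those of Sp1ΔDBD have medians of -0.06, -0.11 and 0.15, and in HE1 they reach from Hoxd1 at -1.37, which was called, to Hoxd10 at 1.46, which was not.

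The genes around the Hoxd cluster were compared in the same way. Sp3 lies on the same chromosome as the Hoxd cluster, 1687863 bases away. The 8 genes tested between them had a median log2 difference between Sp3KO and WT of -0.14 in HE1, -0.12 in HE2 and -0.13 in progenitors. In these populations 0 of them were called higher by limma, where 6.02%, 6.97% and 3.88% of all genes were. Over the 10 comparisons of a mutant with WT these genes gave 6 calls, all lower. That is 7.5% of their tests, beside 9.74% of the tests of all genes. Of this stretch Ola1 was called lower at -0.62 in Sp3KO ESC and -0.80 in Sp3KO Flk1 cells, and Scrn3 at -0.94 in Sp3KO and -0.75 in Sp1ΔDBD Flk1 cells. Within the cluster, the middle of Hoxd3os1, an antisense transcript, lies between those of Hoxd8 and Hoxd4. Hoxd3os1 was at 0.25 and 0.215 FPKM in WT HE1 and at 1.84 and 0.876 in Sp3KO HE1. In progenitors it was at the lowest value and 0.339 FPKM in WT and at 1.94 and 1.35 in Sp3KO. It rose by 2.05 on the log2 scale in HE1 (SE 0.512, limma adjusted p = 0.0148) and by 3.03 in progenitors (SE 0.512, limma adjusted p = 0.00161). The counting is not stated to use strand, so reads of Hoxd3os1 and of the genes it overlaps, which may include Hoxd8, cannot be told apart.

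Haglr, a long non-coding RNA between Hoxd1 and Hoxd3, was not called, with differences of 0.46 in HE1 and 0.67 in progenitors (limma adjusted p = 0.714 and 0.591). In the cluster and within 1 Mb on both sides of it, 9 genes that are not Hox genes were tested, Haglr and Hoxd3os1 among them. Over the 10 comparisons of a mutant with WT they gave 6 calls, 3 higher and 3 lower. That is 6.67% of their tests, and 9.74% of the tests of all genes over these 10 comparisons were calls. Beyond Hoxd3os1, the gene called higher was Mtx2, a mitochondrial outer membrane protein, which lies past the anterior end and rose by 0.73 in Sp3KO HE1 (SE 0.150, limma adjusted p = 0.00454). Chn1 fell by 1.28 in the same cells (limma adjusted p = 0.000371). Both were chosen after their values were seen.

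**Figure D5:**
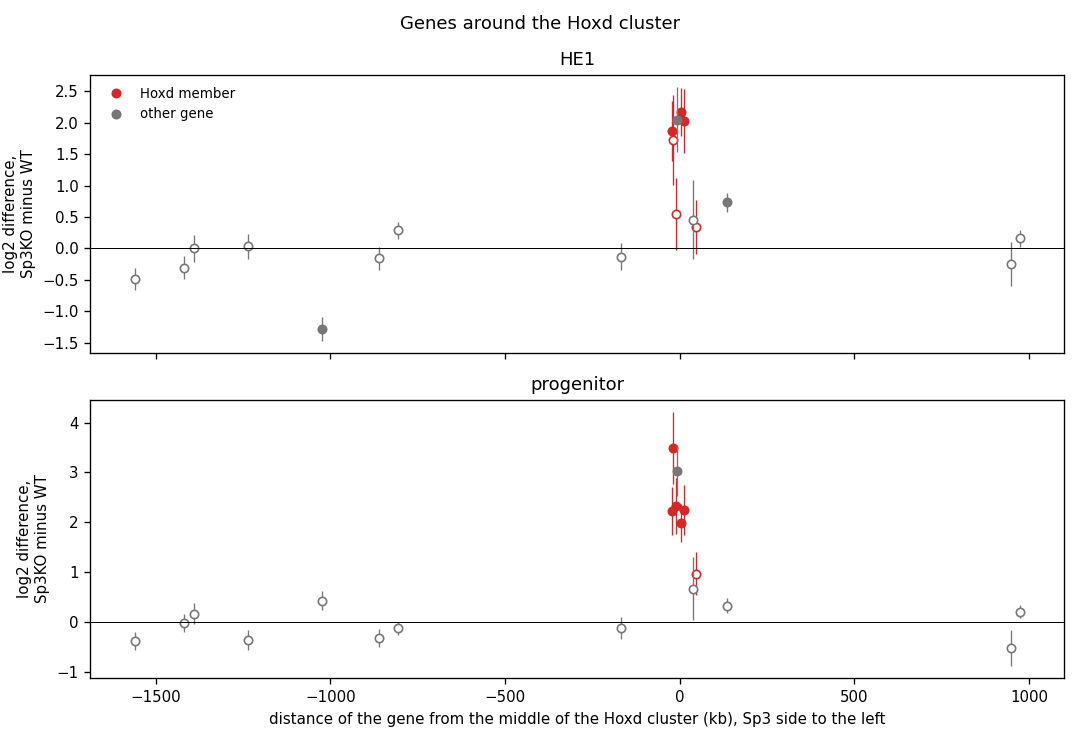
Log2 difference between Sp3KO and WT, with its SE, of the genes around the Hoxd cluster in HE1 and progenitors, against the distance in kb from the middle of the cluster. Filled points were called. In progenitors the 6 Hoxd genes and Hoxd3os1 lie above the other genes plotted. In HE1 Hoxd1 at 0.33 and Hoxd8 at 0.55 lie below Mtx2 at 0.73. Sp3 itself is not plotted, and its difference was -2.47 in HE1 and -3.32 in progenitors.

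In the Hoxb cluster 1 call was made between Sp3KO and WT, that of Hoxb4 in progenitors, and a difference between the Hoxb and Hoxd clusters was not tested. Hoxb4, the gene of the cluster known for its effect on blood stem cells, was at 0.00202 FPKM and the lowest value in WT ESC, 0.38 and 0.791 in WT Flk1 cells, 5.38 and 6.65 in WT HE1, 3.07 and 3.7 in WT HE2, and 0.395 and 0.253 in WT progenitors. In Sp3KO cells both ESC libraries were at the lowest value, Flk1 cells were at 0.28 and 0.177 FPKM, HE1 at 7.15 and 7.09, HE2 at 4.63 and 3.99, and progenitors at 0.981 and 1.25. Its Sp1ΔDBD values were 0.0849 and 0.0386 FPKM in ESC, 0.552 and 0.304 in Flk1 cells, 5.71 and 4.75 in HE1, 3.48 and 2.09 in HE2 and, in progenitors, 0.31 and 0.437. The Sp3KO libraries were above those of WT in HE1, HE2 and progenitors, and below them in Flk1 cells. Hoxb4 rose by 1.53 on the log2 scale in Sp3KO progenitors (SE 0.334, limma adjusted p = 0.00790), a call lost without WT progenitor replicate 2 or Sp3KO progenitor replicate 2, and it was not called in HE1, where the difference was 0.25 (limma adjusted p = 0.708).

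Hoxb2, at chr11:96350525-96354012, had the highest level of all Hox genes. In WT it was at 0.0877 and 0.0301 FPKM in ESC, 5.36 and 4.35 in Flk1 cells, 9.73 and 10.2 in HE1, 5.44 and 4.57 in HE2 and, in progenitors, 0.635 and 0.0841. In Sp3KO cells it was at 0.0124 and 0.167 FPKM in ESC, 6.86 and 5.35 in Flk1 cells, 21.4 and 17.9 in HE1, 8.23 and 8.54 in HE2 and, in progenitors, 0.938 and 0.574. In Sp1ΔDBD cells it was at 0.0682 and 0.0944 FPKM in ESC, 7.15 and 5.02 in Flk1 cells, 16.8 and 8.2 in HE1, 8.63 and 2.3 in HE2 and, in progenitors, 0.718 and 0.236. In HE1 and HE2 both Sp3KO libraries were above both of WT, while the Sp1ΔDBD replicates spanned the WT values. The difference between Sp3KO and WT in HE1 was 0.97 (SE 0.607, limma adjusted p = 0.335).

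Over the 9 Hoxb genes, the median log2 difference between Sp3KO and WT was 0.65 in HE1, 0.34 in HE2 and 0.19 in progenitors. The other Hoxb genes, Hoxb1 apart, had WT HE1 values between 0.686 FPKM for Hoxb8 and 5.2 FPKM for Hoxb6, and none of these was called against WT in either mutant. The chromosome they lie on was itself lower in both mutants: the median log2 difference from WT over the genes of chromosome 11 was between -0.12 and -0.34 in Sp1ΔDBD and between -0.12 and -0.27 in Sp3KO cells over the 5 populations. The 43 genes counted within 1 Mb of the Hoxb cluster gave 46 calls over the 10 comparisons, 45 of them lower. That is 10.7% of their tests, near the 9.74% of all genes, while the 10.5% called lower stand beside 4.86% of all genes. Of the 1196 genes of chromosome 11, between 57 and 228 were called lower in each comparison, and between 6 and 43 higher. The lower calls were thus not particular to this neighbourhood. Spop, an adaptor of a ubiquitin ligase, was called lower in 6 of them, with differences from -1.26 to -0.78. Npepps, an aminopeptidase, was called lower in 7, with differences from -1.07 to -0.50, and Snf8 was at -1.14 in Sp1ΔDBD HE2. When all differences were taken relative to the median of the chromosome, the Hoxb median in Sp3KO cells was 0.89 in HE1, 0.62 in HE2 and 0.47 in progenitors. On that scale the Hoxd calls in Sp3KO cells were again 3 in HE1, 2 in HE2 and 5 in progenitors.

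In Sp1ΔDBD cells compared with WT, 2 calls were made over the 5 populations. Hoxb1, at chr11:96365752-96368256, rose in Flk1 cells, where 5.54% of all genes were called and 2.92% higher. It was at 3.55 and 2.95 FPKM in WT, 9.55 and 7.21 in Sp1ΔDBD and 7.75 and 6.15 in Sp3KO Flk1 cells, and no library of another population exceeded 0.172 FPKM. Both mutants were thus above WT in Flk1 cells. The log2 difference was 1.33 in Sp1ΔDBD (SE 0.384, limma adjusted p = 0.0481) and 1.07 in Sp3KO (SE 0.384, limma adjusted p = 0.0745), and the 2 comparisons share the WT libraries.

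Hoxd1 fell in Sp1ΔDBD HE1 by 1.37 on the log2 scale (SE 0.430, limma adjusted p = 0.0485), where 10% of all genes were called and 4.35% lower. Both calls lie next to the threshold and were lost when most single libraries of the 30 were left out, the first kept in 8 and the second in 6 of the 30 fits. The Hoxb1 call was also lost with the replicate number as a block (limma adjusted p = 0.0647), with the stricter filter (0.0519) and with each population alone (0.0547). The Hoxd1 call was lost with a pseudocount of 1 (limma adjusted p = 0.242), with each population alone (0.156) and once GC content and length were corrected for (0.0817). Without WT progenitor replicate 1, Hoxd1 was called lower in Sp1ΔDBD progenitors, at -1.68 (limma adjusted p = 0.0357), a call not made with that library. In ESC, HE2 and progenitors limma called 0 of the 21 Hox genes, where 6.06%, 9.67% and 8.78% of all genes were called. There 2, 2 and 4 Hox genes had an unadjusted p under 0.05, beside 2755, 3446 and 3283 of the 14525 genes tested. The median difference over the 6 Hoxd genes was -0.06 in HE1, -0.11 in HE2 and 0.15 in progenitors.

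The mutants were also compared with each other, a comparison that shares the Sp3KO libraries with the one against WT. Sp3KO cells were called higher than Sp1ΔDBD for all 6 Hoxd genes in progenitors, where 11.6% of all genes were called and 5.51% higher. The log2 differences were 2.76 for Hoxd9, 2.15 for Hoxd3, 2.12 for Hoxd8, 2.01 for Hoxd4, 1.96 for Hoxd10 and 1.91 for Hoxd1, with limma adjusted p between 0.00227 and 0.0209. In HE1 Hoxd1, Hoxd3 and Hoxd4 were called higher, and Hoxb6 as well, where 13.6% of all genes were called and 6.83% higher. In HE2 Hoxd1, Hoxd3, Hoxd4 and Hoxd9 were called, where 15.9% of all genes were called and 7.41% higher. Hoxb4 was called in progenitors, with a difference of 1.37 (SE 0.334, limma adjusted p = 0.0120). In all there were 16 calls, 13 of them Hoxd genes. Hoxc13 in HE1 was the call in the other direction, at 0.138 and 0.226 FPKM in Sp1ΔDBD and at the lowest value in both Sp3KO libraries, so that no fold is given. ESC and Flk1 cells had 0 Hox calls by limma, where 9.67% and 7.39% of all genes were called. There 1 and 2 Hox genes had an unadjusted p under 0.05, beside 3389 and 3082 of the 14525 genes tested.

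The 5 Hoxa genes and Hoxc13 gave 0 calls against WT by limma. At an unadjusted p under 0.05 there were 3 Hoxa genes in Sp1ΔDBD and 4 in Sp3KO progenitors, beside 3283 and 3396 of the 14525 genes tested. Hoxa5, Hoxa6, Hoxa7 and Hoxa9 passed the filter through WT progenitor replicate 1 alone. That library is among those compared here, so these p are no test of the genotype. Hoxc13 was at 0.278 and 0.256 FPKM in WT ESC, 1.07 and 0.596 in Sp1ΔDBD ESC and 0.675 and 0.378 in Sp3KO ESC. It was at most 0.226 FPKM in every other library. It entered the test through 1 of the Sp1ΔDBD ESC libraries, so no test of its ESC difference is given. Hoxa13 was at 1.18 and 0.768 FPKM in WT HE1, 0.64 and 0.998 in Sp1ΔDBD HE1 and 2.14 and 1.5 in Sp3KO HE1, and was not called in either mutant.

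Hoxa5, Hoxa6, Hoxa7 and Hoxa9, neighbours in the middle of their cluster, were seen in 1 library. In WT progenitor replicate 1 Hoxa5 was at 11.8 FPKM, Hoxa9 at 4.91, Hoxa6 at 1.76 and Hoxa7 at 1.02, and in WT progenitor replicate 2 all 4 were at the lowest value. In the other 29 libraries none of the 4 exceeded 0.872 FPKM. Hoxa5 was at 0.0124 and 0.0114 FPKM in WT ESC, at the lowest value and 0.219 in WT HE1, and at 0.872 and 0.226 in Sp3KO HE1, the highest elsewhere. Ranked among all genes by how far this library exceeded the highest of the other 29, Hoxa5 was at place 5, Hoxa6 at 9, Hoxa9 at 10 and Hoxa7 at 14. None of the 4 was called between genotypes. In progenitors their differences between Sp3KO and WT of -3.26 to -1.56 became 0.18, the gap between lowest values, once that library was left out. The other Hox genes of that library did not stand out, and Hoxd9 and Hoxd10 were at the lowest value and 0.064 FPKM there.

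The change of Hoxd genes from Flk1 cells to HE1 was itself compared between genotypes. Hoxd10 rose by 3.21 more on the log2 scale in Sp3KO than in WT cells (SE 0.677, limma adjusted p = 0.0126) and Hoxd3 by 2.77 more (SE 0.718, limma adjusted p = 0.0360), where 4.02% of all genes were called and 2.1% higher. For Hoxd9, Hoxd4 and Hoxd8 the differences of 3.18, 1.62 and 1.69 did not pass (limma adjusted p = 0.0858, 0.102 and 0.266). In Sp3KO Flk1 cells both libraries of Hoxd10 were at the lowest value, and Hoxd10 had passed the filter through mutant libraries only. At the other steps in Sp3KO cells, and at all steps in Sp1ΔDBD cells, limma called 0 of the 21. Between 1 and 3 of the 21 had an unadjusted p under 0.05 at each of these steps, beside 478 to 2011 of the 14525 genes tested. The share of all genes called there was 1.48%, 0% and 0.0275% in Sp3KO and 1.74%, 1.53%, 0.00688% and 0.0207% in Sp1ΔDBD cells.

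A rule of size without a test asked for group means that differed over 2-fold and for at least 1 of them to exceed 3 FPKM. It was met 13 times over the 10 comparisons with WT. Of these, 10 were higher and 3 lower in the mutant, where 1.65% of all tests met it upwards and 2.37% downwards. Those in Sp3KO HE1 were Hoxb3, Hoxd4, Hoxd9 and Hoxd10. Hoxa5 in progenitors of both mutants made up 2 of the 3 that were lower and rests on the library described above.

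Among the TALE cofactors of Hox proteins, 4 of the 9 genes tested were called in at least 1 of the 10 comparisons with WT, and 5 in none. There were 14 calls, 10 higher and 4 lower, which is 15.6% of their tests beside 9.74% of the tests of all genes. Meis1, the partner that works with Hoxa9 and Hoxb4 in blood cells, was at 44.5 and 22.5 FPKM in WT progenitors and at 9.23 and 7.58 in Sp3KO progenitors. It fell by 1.91 on the log2 scale there (SE 0.298, limma adjusted p = 0.000818), and its other called differences were -1.58 in Sp3KO HE2, -1.08 in Sp1ΔDBD progenitors and -1.03 in Sp1ΔDBD HE2. Meis1 was thus lower in HE2 and progenitors of both mutants. Pbx3 rose by 0.98 in Sp3KO Flk1 cells (SE 0.131, limma adjusted p = 0.000208) and was called higher in 5 comparisons. Pbx2 was called higher in 4, by 0.37 to 0.44.

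Retinoic acid genes gave 14 calls, 12 higher and 2 lower, among the 13 tested of a list of 16. That is 10.8% of their tests, near the 9.74% of all genes, and the 9.23% called higher stand beside 4.88% of all genes. Cyp26b1, which breaks retinoic acid down, rose by 1.74 in Sp3KO HE1 (SE 0.313, limma adjusted p = 0.00185) and by 1.47 in Sp3KO progenitors, and fell by 1.16 in Sp1ΔDBD HE2. Dhrs3, which turns retinal back into retinol, was called higher in Flk1 cells of both mutants, with log2 differences of 1.97 in Sp3KO (SE 0.511, limma adjusted p = 0.0163) and 1.99 in Sp1ΔDBD cells, from a WT mean of 0.119 FPKM. Rxrg, a retinoid X receptor, was called higher 3 times, by 1.65 in Sp3KO Flk1 cells, 1.79 in Sp3KO progenitors and 1.44 in Sp1ΔDBD HE1, and its WT mean was under 0.1 FPKM in the last 2 of these. Cyp26c1, an enzyme of the same family as Cyp26b1, rose by 1.89 in Sp3KO Flk1 cells (limma adjusted p = 0.00909) and was chosen after its values were seen.

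Of the direct regulators of Hox genes, 7 of a list of 10 were tested and gave 3 calls, all higher and all in Sp3KO cells, which is 4.29% of their tests and below the share of all genes called. Men1, a subunit of trithorax complexes that act on Hox genes, rose by 0.48 in HE2 (SE 0.136, limma adjusted p = 0.0234) and by 0.58 in progenitors (SE 0.136, limma adjusted p = 0.0120). Egr2 was called once, in Flk1 cells. Non-coding and other transcripts of the clusters that are not Hox genes gave 3 calls among 6 tested of 15, or 5% of their tests, and Hoxd3os1 made 2 of the 3.

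Markers of other cells were also summed in each library. The 6 fibroblast markers in the table, of a list of 8, summed to 284 and 37.2 FPKM in WT HE1 and to 28.8 and 20.05 in Sp3KO HE1, and to 55.7 and 16.1 in WT and 9.13 and 10.7 in Sp3KO progenitors. The 4 smooth muscle markers summed to 1736 and 359 FPKM in WT HE1 and to 208 and 138 in Sp3KO HE1, so that WT HE1 replicate 1 stood apart. Both sums were lower in Sp3KO HE1, in which the Hoxd genes were higher, and 0 of these genes were called by limma in Sp3KO cells over the 5 populations. An unadjusted p under 0.05 was found in 3 of 30 tests of the fibroblast and 2 of 20 of the smooth muscle markers. Among all 14525 genes tested, 3396 to 4210 had such a p in each population. Over the 6 HE1 libraries the fibroblast markers had means of 33.9 FPKM for Postn, 21.8 for Col1a2, 18.5 for Col1a1, 10.03 for Col3a1, 0.954 for Twist2 and 0.0262 for Thy1. The 5 paraxial mesoderm markers summed to 0.936 and 1.48 FPKM in WT progenitors and to 2.45 and 4.16 in Sp3KO progenitors. The 9 markers of HE2 and progenitors summed to 13417 and 4420 FPKM in WT progenitors and to 1753 and 3494 in Sp3KO, with Hbb-bh1, an embryonic globin, the most abundant, while the 6 HE markers summed to 141 and 176 in WT and to 165 and 169 in Sp3KO progenitors. In HE1 the HE markers summed to 821 and 1135 FPKM in WT and to 780 and 775 in Sp3KO cells. The part of these differences in the Hox results was not tested, and in bulk RNA fewer cells with a transcript and less of it per cell cannot be told apart.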

How the data were processed

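RNA of 30 libraries (5 populations, 3 genotypes, 2 replicates each, grouped by their deposited labels) had been sequenced from total RNA libraries depleted of ribosomal RNA. Per the labels and the methods of the study, the authors aligned reads to mm10 with HISAT2 2.1.0, calculated FPKM per gene with StringTie 1.3.3, retained genes that passed 1 FPKM somewhere in the series, and deposited FPKM values after quantile normalisation. No counts were used, so depth and counting error are unknown and errors rest on the replicates. Quantile normalisation gives every library the same distribution and can shift low genes, which most Hox genes are.

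A linear model in limma 3.58.1, run in R 4.3.3, was fitted to log2(FPKM + 0.1), as 1 model of the 15 group means with an intensity trend, 15 residual and 3.92 prior degrees of freedom, two-sided, with Benjamini-Hochberg adjustment within each comparison over the 14525 genes above 1 FPKM in at least 1 library. HE1, HE2 and progenitor libraries with the same number deviated together (WT pairs at 0.352 to 0.427, Sp1ΔDBD pairs at 0.408 to 0.612 and Sp3KO pairs at 0.0349 to 0.154, as correlations over genes), so the degrees of freedom are overstated. The labels call the replicates biological but do not name separate cultures. The fold change rule was a ratio of group means of FPKM + 0.1 over 2 with a mean above 3 FPKM.

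The Hox genes and the lists were chosen with earlier results of these data known. A few genes, 1 Hox gene among them, stayed in every fit but are not reported here. Values are given for the Hox genes called against WT and the gene with the highest WT mean of each cluster. They cover every library except for Hoxb1, Hoxa5 and Hoxc13, which are given for some groups only. Genes of the lists are named where called in at least 2 of the 10 comparisons with WT, up to 3 a list by adjusted p. Positions came from GENCODE M21 (GRCm38), which matched 14562 of the 14685 symbols, 192 of them by an older symbol. Alternatives were a pseudocount of 1, no filter, a filter on a group mean above 3 FPKM, each population or genotype alone, a replicate block, a correction for GC content and length, centring on the chromosome, leaving out each library and, added after seeing the data, setting tied lowest values to 0. The fit was tested on simulated data. Their noise was drawn for each library on its own, so they do not cover the shared deviations of same-numbered libraries. Figures were drawn with matplotlib 3.10.9, and tables made with Python 3.11.15, pandas 2.3.3, numpy 2.4.6 and scipy 1.17.1.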

Additional observations from a re-analysis of the deposited data

Results flagged for a closer look

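The rise from Flk1 cells to HE1 differed between Sp3KO and WT cells for 2 Hox genes, by a test of the difference of the rises itself. Hoxd10 had passed the filter through mutant libraries only, so its p rests on groups in which it was high. Both its Sp3KO Flk1 libraries were at the lowest value. For Hoxd10 the difference was 3.21 on the log2 scale (SE 0.677, limma adjusted p = 0.0126). It was lost without WT Flk1 replicate 2, Sp3KO Flk1 replicate 1, WT HE1 replicate 1 or Sp3KO HE1 replicate 1, with a limma adjusted p of up to 0.0864. For Hoxd3 it was 2.77 (SE 0.718, limma adjusted p = 0.0360), lost when any of 6 libraries of these groups was left out, with a limma adjusted p of up to 0.203. In Sp1ΔDBD cells the same difference from WT was 2.01 for Hoxd10 (limma adjusted p = 0.169) and -0.16 for Hoxd3 (limma adjusted p = 0.969).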

How the results depend on the processing

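Of the counts of Hox calls, those at the steps in WT (37, between 26 and 41 under the alternatives) and in Sp3KO cells (34, between 23 and 41) stayed within 1.5 times the value reported. With a pseudocount of 1 the 2 calls of Sp1ΔDBD against WT became 4, the 11 of Sp3KO against WT became 18, and the 2 step differences became 9. The stricter filter on a group mean above 3 FPKM gave 1, 10 and 1 for these, and 23 in place of 38 calls at the Sp1ΔDBD steps. With each population fitted alone, 1 call of Sp1ΔDBD and 2 of Sp3KO against WT were made, and 2 in place of 16 of Sp3KO against Sp1ΔDBD. None of these was among the calls of the fit over all 30 libraries. The fold change rule was met 13 times, 48 times with no minimum mean, and 7 times where all 4 pairs of libraries had to pass. The cause of these shifts was not tested. Of the 68 single results followed, 0 reversed direction under any alternative.

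The replicate numbers of different genotypes pair samples by number alone: same-numbered WT and Sp1ΔDBD libraries deviated together (correlations across genes of 0.222 to 0.455), WT and Sp3KO libraries less so (0.00473 to 0.193). With the replicate block 1 call of Sp1ΔDBD against WT, 12 of Sp3KO against WT, 20 between the mutants, 2 step differences, and 41, 41 and 36 calls at the WT, Sp1ΔDBD and Sp3KO steps were made.

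Leaving out 1 library at a time gave 0 to 6 calls of Sp1ΔDBD and 7 to 16 of Sp3KO against WT, 12 to 20 between the mutants, 0 to 11 step differences, 31 to 44 calls at the WT, 31 to 42 at the Sp1ΔDBD and 30 to 37 at the Sp3KO steps, and 11 to 16 genes past the fold change rule. WT progenitor replicate 2 gave the highest counts against WT when left out (6 and 16) and the 11 step differences, and Sp3KO progenitor replicate 1 the lowest of Sp3KO (7). The step differences could not be fitted with each population alone. Most Hox genes lie below the median gene, where FPKM without counts gives no measure of counting error.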
